A study of Homo sapiens with 2 samples.

Results

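The ID genes, both inhibitory SMAD genes and a set of BMP and TGF-β ligand genes were examined in the human lung adenocarcinoma line H1944 with and without knockdown of USP12, which encodes a deubiquitinase. The 10 genes were ID1, ID2, ID3, ID4, SMAD6, SMAD7, BMP2, BMP4, TGFB1 and TGFB2. They were found by name in the deposited count tables and made up 10 of 59125 rows. The rule used names alone, but the 10 genes were chosen with earlier results of these data known. RNA sequencing had been done on H1944 cells carrying a control short hairpin RNA (shCON) and on H1944 cells carrying a short hairpin RNA against USP12 (shUSP12), with 1 library per group. The methods describe the hairpins as expressed from the pLKO.1 lentiviral vector. Neither the labels nor the methods say which of the listed USP12 hairpins was sequenced, and whether the cells were a pool or a clone is not given in the sources used here. The control column is headed SHRFP, whereas the methods name a hairpin against GFP. No time point or further treatment is given for either group.

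Sequencing gave 18249112 counts for shCON and 17475359 for shUSP12. USP12 (chromosome 13, 27066156 to 27171811 of GRCh38, minus strand) had 711 counts in shCON and 219 in shUSP12, or 29.3% of the shCON level, which followed the labels. The libraries also stood apart in other ways. For 119 rows, 7 of them annotated on chromosome Y, shCON gave 3 counts or fewer whereas shUSP12 gave 50 or more, and the opposite was found for 1 row. None of the 10 genes was among these 119. All 8 epithelial markers were read, with 5 counting intervals of the log2 ratio above 0 and 3 below. They summed to 7259 CPM in shCON and 6254 CPM in shUSP12. CPM are counts per 1000000 counts of the library, with the library totals scaled by TMM as described below. KRT19 had 32 counts in shCON and 4452 in shUSP12, EPCAM 115 and 1566, CDH1 1026 and 2496, CLDN4 1348 and 2753, and KRT7 13626 and 22378. Lower in shUSP12 were KRT8, with 85596 and 62180 counts, KRT18, with 24132 and 18096, and MUC1, with 656 and 499. NKX2-1, a lung lineage factor, had 0 and 312 counts. Of the other lung markers, SFTA3 had 0 and 36 counts, NAPSA 9 and 12, and the surfactant gene SFTPC 0 and 2. The surfactant genes SFTPB and SFTPA1 had 0 in both libraries. Of 7 fibroblast markers, 4 passed a mean of 1 CPM, with sums of 78.9 and 97.01 CPM over the list. LUM had 788 and 1103 counts and DCN 481 and 597, whereas COL3A1 had 69 and 43, PDGFRB 25 and 11, THY1 12 and 11, PDGFRA 0 and 7 and COL1A2 0 and 3. None of 5 endothelial markers passed, and 1 of 6 blood cell markers did (CD14, with 21 and 31 counts), while CD3E and CD68 had 0 in both. The part of these differences in the values below was not tested. In bulk RNA, fewer cells of a type and less RNA per cell cannot be told apart.

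BMP and TGF-β ligands are secreted proteins that bind paired type I and type II receptor kinases, which phosphorylate receptor-activated SMAD proteins. These join SMAD4, enter the nucleus and change transcription. ID proteins are helix-loop-helix proteins without a DNA-binding region, which hold E proteins and other basic helix-loop-helix factors away from DNA, and ID1, ID2 and ID3 are among the best known direct targets of BMP signalling. SMAD6 and SMAD7 are inhibitory SMADs, induced by the pathway and acting back on it: SMAD6 acts mainly on the BMP branch and SMAD7 on both branches. In epithelial tumours TGF-β is known for growth arrest, for matrix production and for epithelial-mesenchymal transition.

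Of the 10 genes, BMP4 had the largest difference, with 40 counts in shCON and 905 in shUSP12, a level 21.6-fold higher. ID1, ID2 and ID3 were higher in shUSP12 by between 1.27-fold and 1.94-fold, whereas ID4 was at nearly the same level in both libraries. SMAD6 was 1.15-fold higher, and SMAD7, TGFB1 and TGFB2 stood at 77.8%, 87.6% and 67.2% of their shCON levels. All 10 passed a mean of 1 CPM over both libraries. At least 2-fold higher levels in shUSP12 were found for 1 of the 10 (BMP4), beside 6.48% of all 14612 rows that passed the same filter. None was at least 2-fold lower, beside 3.01% of these rows. Of all rows beyond 2-fold, 68.3% were higher in shUSP12, and 79.6% when libraries were scaled to total counts alone, where 2 of the 10 genes (BMP4 and ID2) passed 2-fold. The median log2 ratio of the 10 genes was 0.23, beside −0.01 for all rows tested.

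With 1 library per group the differences could not be set against a spread between replicates, and no p-value is given. The 95% intervals in the text are exact binomial (Clopper-Pearson) intervals, apart from those for changes in a ratio between genes. Those are conditional intervals of the odds ratio of the counts. All these intervals cover counting error alone, as 1 library per group gives no spread between replicates. PCR copies of the same molecule cannot be recognised here, so the intervals may be too narrow even for that. Under this measure 5 of the 10 genes had an interval of the log2 ratio above 0 and 3 had one below 0. Such intervals were common, as 27.1% of all rows tested lay above 0 and 29.1% below. CPM values are scaled by TMM, the trimmed mean of M values, which corrects for differences in library make-up. For log2 ratios (shUSP12 to shCON), 0.1 CPM was added to each level, which makes low genes look less different, and folds and intervals carry no such addition.

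**Figure D1:**
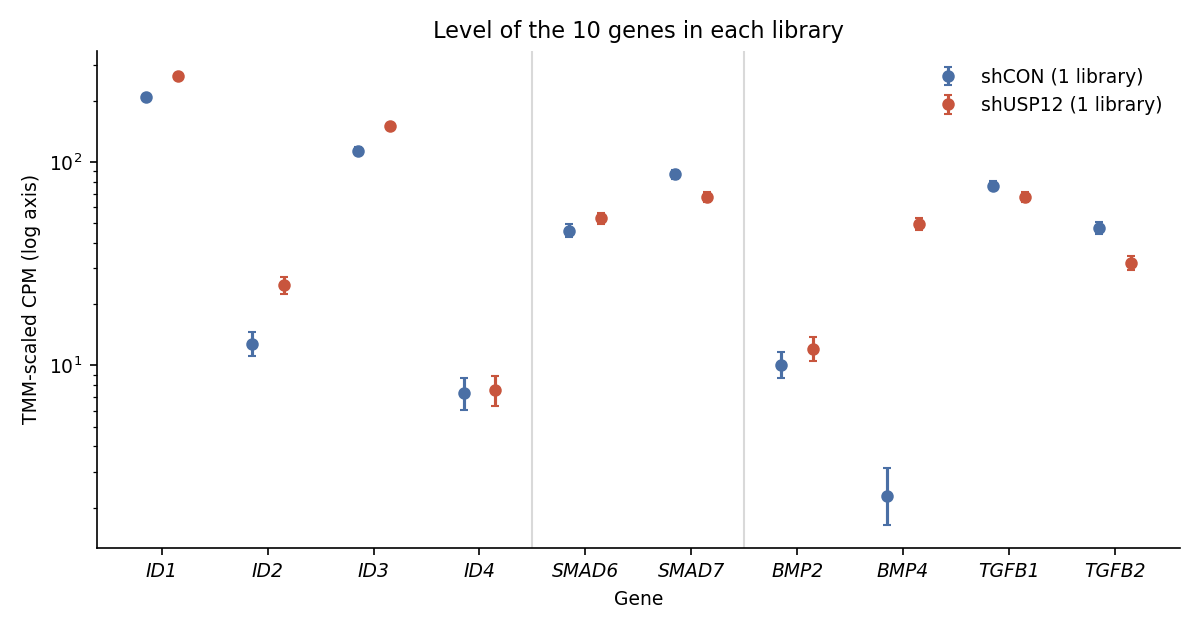
TMM-scaled CPM on a log axis for each of the 10 genes in shCON (blue) and shUSP12 (red), 1 library each, with bars for the 95% counting interval. The intervals of ID4 and of BMP2 overlap between libraries, and BMP4 goes from the lowest point in shCON, 2.29 CPM, to 49.5 CPM in shUSP12.

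The ID genes were described first. ID1 (ENSG00000125968) lies on chromosome 20 from 31605283 to 31606515 of GRCh38, on the plus strand. It had 3648 counts in shCON, a level of 209 CPM (95% interval 203 to 216), and 4851 counts in shUSP12, a level of 265 CPM (258 to 273). The shUSP12 library was the higher, and the counting intervals did not overlap. The ratio was 1.27-fold (95% interval 1.21 to 1.32), a log2 ratio of 0.34. ID3 (ENSG00000117318; chromosome 1, 23557926 to 23559501, minus strand) had 1968 and 2747 counts, or 113 CPM (108 to 118) and 150.1 CPM (144.6 to 155.9). Its level was 1.33-fold higher in shUSP12 (95% interval 1.25 to 1.41), a log2 ratio of 0.41.

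ID2 (ENSG00000115738; chromosome 2, 8678845 to 8684461, plus strand) was the ID gene with the largest difference. It had 222 counts in shCON, 12.7 CPM (11.1 to 14.5), and 453 counts in shUSP12, 24.8 CPM (22.5 to 27.1). The level was 1.94-fold higher (95% interval 1.65 to 2.29). Its log2 ratio of 0.95 lay just under the 2-fold threshold and was 1.09 when libraries were scaled to total counts alone. The antisense transcript ID2-AS1, which overlaps ID2 on the opposite strand, had 27 and 10 counts. Whether counting used the strand is not given in the sources used here.

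ID4 (ENSG00000172201; chromosome 6, 19837370 to 19842197, plus strand), which is known to act in part differently from the other ID proteins, was the least abundant of the family per kilobase of exon. It had 127 counts in shCON, 7.29 CPM (6.07 to 8.67), and 138 in shUSP12, 7.54 CPM (6.34 to 8.91). Its log2 ratio of 0.05 had an interval from −0.31 to 0.41, so differences of up to 1.33-fold in shUSP12 could not be told from none at this depth. Summed over the 4 genes, ID transcripts had 342 CPM in shCON and 448 CPM in shUSP12, and the log2 ratio of this sum was 0.39 (95% interval 0.34 to 0.44). The levels of ID1 and ID3 are above 100 CPM, where 0.899% of all rows were higher by 2-fold or more and 0.993% lower by as much. ID2 lies between 10 and 100 CPM, where these shares were 2.67% and 1.16%, and ID4 between 1 and 10 CPM, where they were 14.4% and 6.56%.

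Promoter sequence is shown for the ID genes because they are known targets of BMP signalling. RefSeq promoter windows on GRCh38.p14 were found for 9 of the 10 genes, all but BMP2, and the 250 bases before the start site were searched on both strands for the CCAAT box, spelled CCAAT, and for the TATA box, spelled TATAAA. The search also covered GGCGCC, a GC-rich element of BMP-responsive promoters, and the palindrome GTCTAGAC, which SMAD proteins are known to bind. CCAAT was found in 3 of the 9 windows (ID1, ID2 and ID4), beside 32.0% of all 35116 windows, and TATAAA in 3 (ID1, ID4 and TGFB2), beside 10.7%. GGCGCC was found in 1 window (BMP4), beside 16.4%. That window belongs to an alternative start of BMP4, 1775 bases from the canonical start site, and is the nearest of 3 RefSeq windows of the gene. The bases just before the start sites are shown for the ID genes with an exon-free stretch there, from chr20:31605189-31605282 (plus strand), chr1:23559502-23559601 (minus strand) and chr6:19837270-19837369 (plus strand), with CCAAT and TATAAA matches in capitals.
ID1: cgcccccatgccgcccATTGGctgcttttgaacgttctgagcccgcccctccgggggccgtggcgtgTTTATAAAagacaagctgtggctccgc
ID3: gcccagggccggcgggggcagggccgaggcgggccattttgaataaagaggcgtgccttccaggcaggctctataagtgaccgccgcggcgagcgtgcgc
ID4: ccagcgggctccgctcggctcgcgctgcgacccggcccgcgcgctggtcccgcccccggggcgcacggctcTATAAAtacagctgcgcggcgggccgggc
ID1 thus held TATAAA in both directions in one overlapping stretch, and ID4 held it once. The ID3 window matched neither of these boxes. ID2 had 3 CCAAT matches and no TATAAA in its window.

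**Figure D2:**
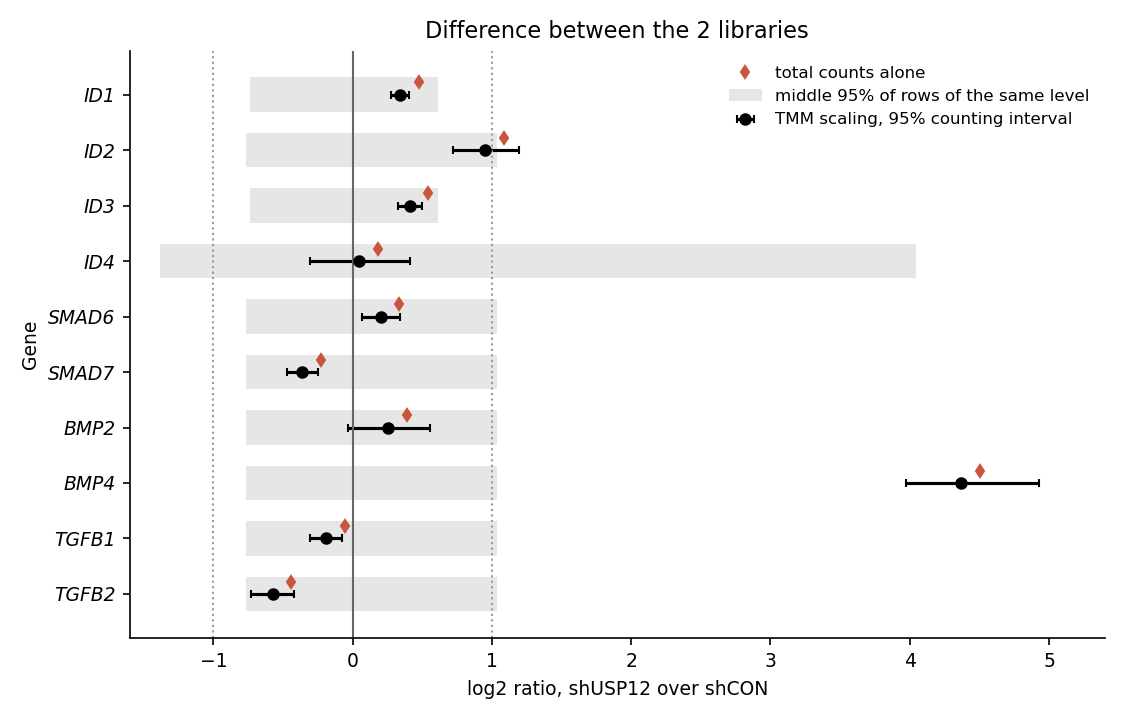
The log2 ratio of shUSP12 over shCON for each gene (black, with the 95% counting interval), the same with scaling to total counts alone (red diamonds), and in grey the middle 95% of all rows of the same level, with dotted lines at 2-fold. BMP4, at 4.37, is the gene whose whole interval lies beyond its grey range, and the other 9 points with TMM scaling lie inside theirs. Level is the mean of both libraries, so the grey range used for BMP4 follows from its high shUSP12 level.

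Of the inhibitory SMADs, one was higher and the other lower in shUSP12. SMAD6 (ENSG00000137834; chromosome 15, 66702236 to 66782849, plus strand) had 802 counts in shCON, 46.0 CPM (42.9 to 49.3), and 968 in shUSP12, 52.9 CPM (49.6 to 56.3). The ratio was 1.15-fold (95% interval 1.05 to 1.26), a log2 ratio of 0.20. SMAD7 (ENSG00000101665; chromosome 18, 48919853 to 48950965, minus strand) had 1515 counts in shCON, 86.9 CPM (82.6 to 91.4), and 1238 in shUSP12, 67.7 CPM (63.9 to 71.5). The shUSP12 level was 0.778-fold that of shCON (95% interval 0.722 to 0.840), and the log2 ratio of SMAD7 was −0.36.

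The directions of SMAD6 and SMAD7 were the same under the 4 other scalings tried. The palindrome GTCTAGAC was found in 1 of the 9 windows, that of SMAD6, beside 0.182% of all windows, and in none of the other RefSeq windows of the 10 genes. It is shown in capitals within the 100 bases before the SMAD6 start site, chr15:66702136-66702235 on the plus strand.
SMAD6: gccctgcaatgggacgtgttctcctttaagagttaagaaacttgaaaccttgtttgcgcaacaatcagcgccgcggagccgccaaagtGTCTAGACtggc
The match lies from 12 to 5 bases before the start site. It is a match of letters, and binding was not measured here. Sequence outside the windows was not searched. The lack of a match in the SMAD7 windows therefore does not show that SMAD7 lacks the palindrome elsewhere.

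The ligand genes held both the highest and the lowest ratio of the 10. BMP4 (ENSG00000125378; chromosome 14, 53949736 to 53958761, minus strand), a ligand of the BMP branch and a patterning factor of the developing lung, had 40 counts in shCON, a level of 2.29 CPM (1.64 to 3.13). In shUSP12 it had 905 counts, a level of 49.5 CPM (46.3 to 52.8). The shCON library was low and the shUSP12 library high, with a ratio of 21.6-fold (95% interval 15.7 to 30.4) and a log2 ratio of 4.37 (3.97 to 4.92). A log2 ratio at or above that of BMP4 was held by 142 of 14612 rows (0.972%), and by 28 of the 7420 rows with a mean of 10 to 100 CPM (0.377%). BMP4 falls in that range by its mean of 25.9 CPM, which rests on shUSP12, so the smaller share depends in part on the difference itself. Its shCON level lies between 1 and 10 CPM, and for rows with a mean in that range the middle 95% of log2 ratios reached 4.045. Of the 8 epithelial markers, 5 were higher and 3 lower in shUSP12, as given above, and 119 one-sided rows were read mainly in shUSP12. The part of either in the BMP4 value was not tested.

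BMP2 (ENSG00000125845; chromosome 20, 6767686 to 6780246, plus strand), a close relative of BMP4 that uses the same receptors, had 176 and 221 counts. These gave 10.1 CPM (8.66 to 11.7) in shCON and 12.1 CPM (10.5 to 13.8) in shUSP12, intervals that overlap. Its log2 ratio of 0.26 had an interval from −0.03 to 0.55. With total counts alone the interval ran from 0.10 to 0.68 and no longer included 0.

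TGFB1 (ENSG00000105329; chromosome 19, 41301587 to 41353922, minus strand) encodes the most widely expressed TGF-β isoform. It had 1334 counts in shCON, 76.5 CPM (72.5 to 80.8), and 1227 in shUSP12, 67.1 CPM (63.4 to 70.9). Its log2 ratio was −0.19 (95% interval −0.30 to −0.08). With total counts alone the interval of TGFB1 ran from −0.17 to 0.05 and included 0. Its annotated span overlaps HNRNPUL1 on the opposite strand, which had 12683 and 10534 counts, and CCDC97, which had 1758 and 1514. Reads from the 2 strands of that locus cannot be told apart if strand was not used in counting.

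TGFB2 (ENSG00000092969; chromosome 1, 218345336 to 218444619, plus strand), an isoform that needs a co-receptor to bind its type II receptor well, was the gene with the lowest ratio of the 10. It had 829 counts in shCON, 47.6 CPM (44.4 to 50.9), and 585 in shUSP12, 32.0 CPM (29.4 to 34.7). The ratio was 0.672-fold (95% interval 0.604 to 0.748), and the log2 ratio −0.57. Among all rows tested, 9.47% had a lower log2 ratio than TGFB2.

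**Figure D3:**
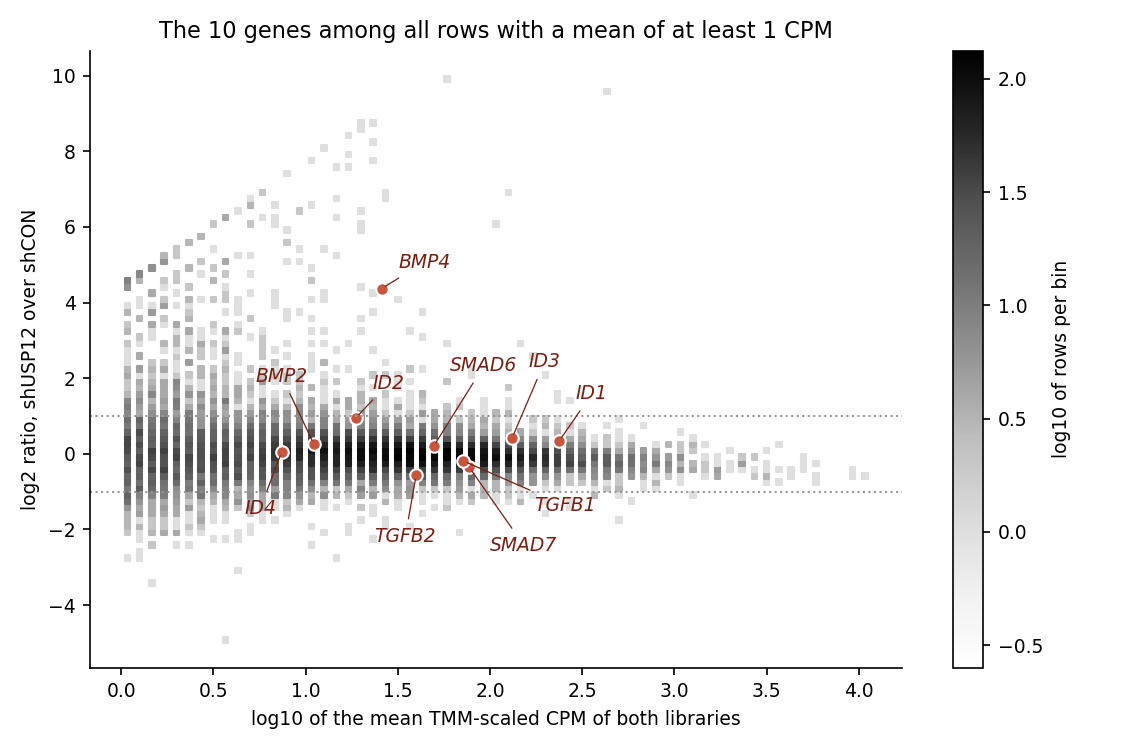
The log2 ratio of shUSP12 over shCON against log10 of the mean TMM-scaled CPM for all 14612 rows that passed the 1 CPM filter, in grey bins shaded by the log10 number of rows, with the 10 genes as red points and dotted lines at 2-fold. BMP4 lies above the band of most rows at its mean level, which rests on shUSP12, and ID2 lies just under the upper dotted line.

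The order of levels was compared per kilobase of exon, since longer transcripts give more counts. In shCON the order was ID1 (169.7 CPM per kilobase), ID3 (75.5), TGFB1 (23.4), SMAD7 (22.0), TGFB2 (7.86), ID2 (5.76), SMAD6 (5.38), BMP2 (2.85), ID4 (1.88) and BMP4 (0.741). TGFB1 and SMAD7 were neighbours with overlapping counting intervals in shCON, as were ID2 and SMAD6. In shUSP12 ID1 (215 CPM per kilobase), ID3 (100.4), TGFB1 (20.5) and SMAD7 (17.1) again led. BMP4 stood at 15.98 CPM per kilobase, the 5th highest instead of the lowest, and its interval overlapped that of SMAD7 alone. The remaining genes were ID2 (11.2), SMAD6 (6.18), TGFB2 (5.28), BMP2 (3.41) and ID4 (1.95), without overlap between neighbours. With the longest transcript in place of all exons, 7 of the 10 genes kept their place in each library. ID2, SMAD6 and TGFB2 moved in shCON and SMAD7, TGFB1 and BMP4 in shUSP12, where BMP4 stood 3rd at 25.6 CPM per kilobase. Within the ID family ID1 made up 67.1% of the summed level per kilobase in shCON and 65.5% in shUSP12, ID3 29.8% and 30.5%, ID2 2.28% and 3.41%, and ID4 0.744% and 0.593%.

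Ratios between genes of the same library do not depend on how the libraries are scaled. BMP4 took 18.5% of the summed counts of BMP4 and BMP2 in shCON (95% interval 13.6% to 24.4%) and 80.4% in shUSP12 (77.9% to 82.7%). The count ratio of BMP4 to BMP2 thus went from 0.227 to 4.10, a change of 18.0-fold (95% interval 12.3 to 26.8). SMAD6 took 34.6% of the counts of both inhibitory SMADs in shCON (32.7% to 36.6%) and 43.9% in shUSP12 (41.8% to 46.0%). The ratio of SMAD6 to SMAD7 was therefore 1.48 times as high in shUSP12 (95% interval 1.31 to 1.67).

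TGFB2 relative to TGFB1 changed by a factor of 0.767 (95% interval 0.671 to 0.877). ID2 relative to ID1 changed by a factor of 1.53 (1.296 to 1.82). The ratio of ID3 to ID1 changed by a factor of 1.05, with an interval from 0.976 to 1.13 that included 1, and that of ID4 to ID1 by a factor of 0.817, with an interval from 0.635 to 1.05 that included 1. ID1 and ID3 thus differed between the libraries by ratios that could not be told apart at this depth. The ratio of ID1 to SMAD7 counts was 2.41 in shCON and 3.92 in shUSP12, a factor of 1.63 (1.49 to 1.78).

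**Figure D4:**
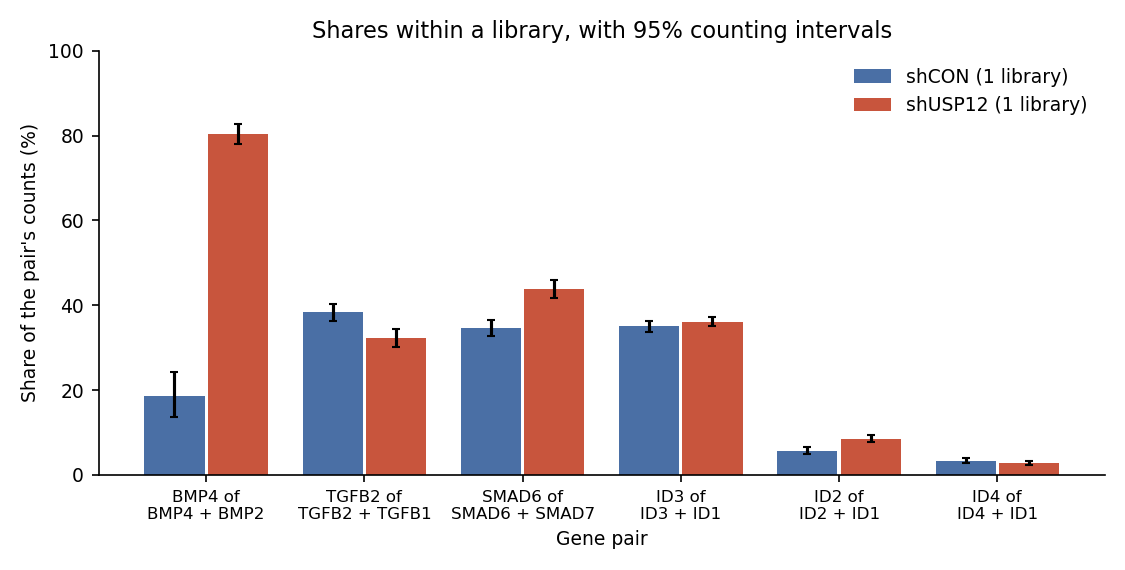
Share of the first gene in the summed counts of each pair (percent, axis from 0), in shCON (blue) and shUSP12 (red), with 95% counting intervals. The share of BMP4 in BMP4 and BMP2 goes from 18.5% to 80.4%, whereas that of ID3 in ID3 and ID1 is 35.0% and 36.2%.

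Other genes of the pathway were then read from 8 lists holding 121 genes. Of these, 88 passed a mean of 1 CPM, 10 were at least 2-fold higher in shUSP12, 6 were at least 2-fold lower and 72 lay between. Their median log2 ratio was −0.05, beside −0.01 for all rows tested. Over all rows tested the shares were 6.48% higher and 3.01% lower, and these shares also stand beside the counts of each list below. The filter is on the mean, so a gene can pass through 1 library. CDKN2B, ENG, INHBB and ACVR1C, all called higher, had under 1 CPM in shCON. BMP7 and LRRC32, both called lower, had under 1 CPM in shUSP12. By level, 6 of 26 genes with a mean of 1 to 10 CPM were at least 2-fold higher and 3 lower. Of 41 genes with 10 to 100 CPM, 4 were higher and 1 lower, and of 21 with 100 CPM or more, 0 were higher and 2 lower, to be read beside the shares of all rows at these levels given above.

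Among the other ligands, 9 of 22 passed the filter, with 2 higher, 1 lower and a median log2 ratio of −0.22. INHBB, the βB subunit of activins and inhibins, had 9 counts in shCON and 669 in shUSP12, a ratio of 70.8-fold (95% interval 37.1 to 155.5). TGFB3, the remaining TGF-β isoform, had 49 and 136 counts (2.64-fold, 1.89 to 3.74). BMP7, a BMP of the osteogenic protein group, went the other way, with 126 counts in shCON and 14 in shUSP12, so that its shUSP12 level was 10.6% of that in shCON. The most abundant of these ligands, GDF15, had 71.0 and 81.7 CPM. Of the 9 ligands, 3 had a counting interval above 0 and 4 one below 0, the latter being BMP7, BMP5 (194 and 105 counts), BMP8B (163 and 95) and AMH (97 and 65).

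Of 14 receptors and co-receptors, 13 passed, with 2 higher, 0 lower and a median log2 ratio of −0.03. ENG (endoglin), a co-receptor best known from endothelial cells, had 2 counts in shCON and 262 in shUSP12, a ratio of 125-fold with a wide counting interval from 34.2 to 1036. ENG was among the 119 one-sided rows described above. The 5 endothelial markers summed to 1.03 CPM in shCON and 3.28 CPM in shUSP12. KDR had 0 and 32 counts, VWF 1 and 13, TEK 4 and 5, CDH5 3 and 3 and PECAM1 10 and 7, and their part in the ENG value was not tested. ACVR1C, a type I receptor, had 11 and 30 counts. TGFBR2, the most abundant receptor of the list and the type II receptor of TGF-β, had 125.1 and 165.8 CPM, a log2 ratio of 0.41 (0.33 to 0.49).

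None of the 6 genes for the receptor-activated SMADs and SMAD4 reached 2-fold, and their median log2 ratio was −0.18. SMAD3, the most abundant, had 380 and 371 CPM, with a log2 ratio of −0.03 and an interval from −0.08 to 0.02. Of 24 extracellular regulators, 15 passed, with 0 higher and 2 lower. The latter were LRRC32, which holds latent TGF-β at the cell surface, with 35 and 12 counts, and CHRD, which encodes the BMP antagonist chordin, with 46 and 22. LTBP3, a latent TGF-β binding protein, had the highest mean CPM of that list, with 226 and 284 CPM. Per kilobase of exon, FSTL3 of the same list stood higher, with 78.2 and 67.9 CPM against 19.6 and 24.7 for LTBP3.

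Of 14 intracellular regulators, 13 passed, with 1 higher and 0 lower. SMURF2, a ubiquitin ligase that is recruited by SMAD7 to TGF-β receptors, had 666 counts in shCON, 38.2 CPM (35.4 to 41.2), and 1838 in shUSP12, 100.5 CPM (95.9 to 105.2). The ratio was 2.63-fold (95% interval 2.40 to 2.88). PMEPA1, a TGF-β-induced inhibitor of the pathway with the highest mean CPM of the list, had 258 and 192 CPM, a log2 ratio of −0.43.

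Of 17 usual TGF-β target genes, all of which passed, 1 was higher, 3 were lower and the median log2 ratio was 0.04. The 3 lower genes were the collagen genes COL1A1 and COL4A1 and TAGLN, which encodes the actin-binding protein transgelin. COL1A1 had 1911 and 462 counts (23.0% of the shCON level), TAGLN 6995 and 3203 (43.6%) and COL4A1 9038 and 4523 (47.7%). CDKN2B, a cell cycle inhibitor, had 0 counts in shCON and 385 in shUSP12 and was at least 122-fold higher when the shCON level was set at 3 counts. It was also among the 119 rows named above. TGFBI, the most abundant of the list, had 1891 and 1985 CPM. CCN2, listed under its older name CTGF, had 357 and 341 counts.

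Of 14 usual BMP target genes outside the ID genes, 10 passed, with a median log2 ratio of 0.06. Of these, 3 were higher and 0 lower, beside 6.48% and 3.01% of all rows tested. RUNX2, a transcription factor of bone formation, had 58 and 338 counts, a ratio of 5.55-fold (95% interval 4.19 to 7.47). ATOH8, a basic helix-loop-helix factor, had 59 and 234 counts (3.78-fold, 2.83 to 5.12), and HEY1, also a Notch target, had 32 and 92 (2.74-fold, 1.81 to 4.23). The means of ATOH8 and HEY1 lay between 1 and 10 CPM, where 14.4% of all rows were at least 2-fold higher. RUNX2 had a mean of 10.9 CPM, and of rows with a mean of 10 to 100 CPM 2.67% were at least 2-fold higher. Its level was 3.33 CPM in shCON and 18.5 CPM in shUSP12, so that it reached this range through shUSP12. KLF10, the most abundant of the list, had 148.8 and 175.4 CPM. The other 7 genes of this list that passed the filter lay within 2-fold.

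Of 12 basic helix-loop-helix factors, among them the E proteins that ID proteins bind, 7 passed, with 1 higher and 0 lower. It was BHLHE41, a repressor of the circadian clock, with 21 and 88 counts. Its mean was 3.01 CPM, and 14.4% of all rows with a mean of 1 to 10 CPM were at least 2-fold higher. The E protein genes TCF3, TCF4 and TCF12 had log2 ratios of −0.13, −0.13 and 0.16. BHLHE40, the most abundant of the list, had 270.0 and 229.9 CPM.

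**Figure D5:**
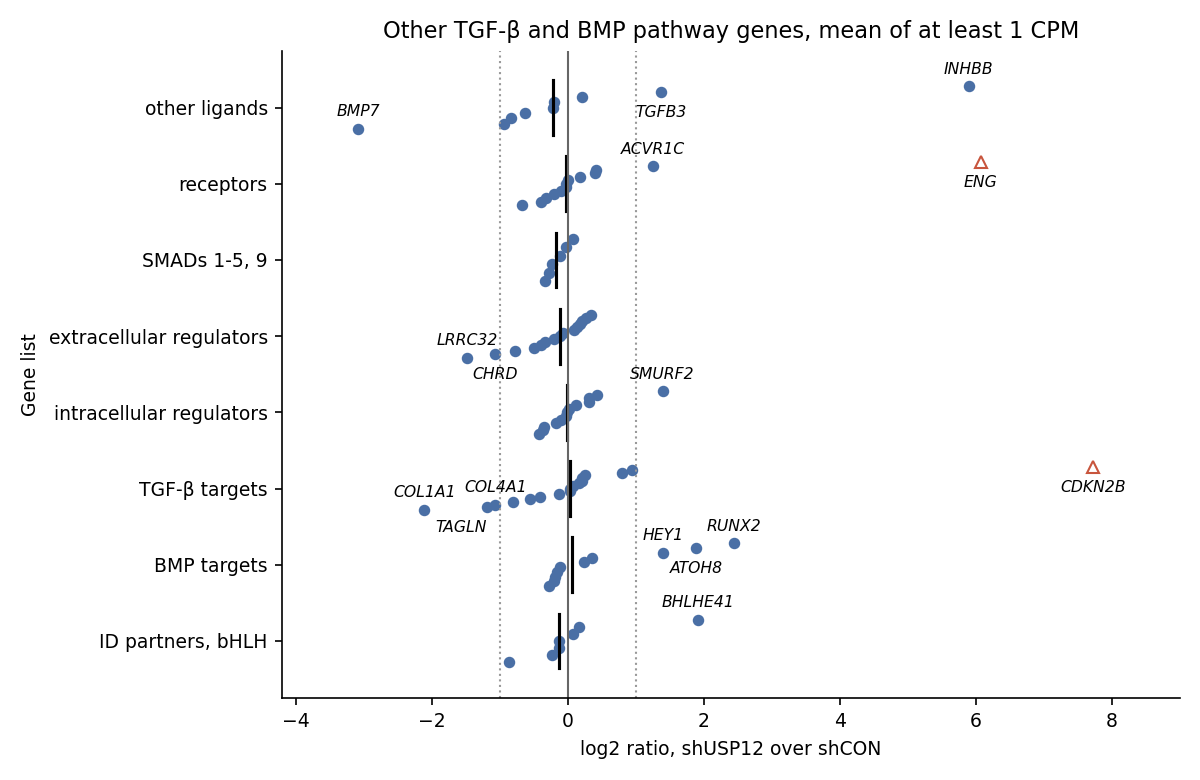
The log2 ratio of shUSP12 over shCON for the genes of 8 pathway lists with a mean of at least 1 CPM. Circles are genes with more than 3 counts in both libraries, open triangles those with at most 3 in a library, black bars the list medians and dotted lines 2-fold, and genes beyond 2-fold are named. The medians lie between −0.22 and 0.06, and most genes lie between the dotted lines.

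The genes next to the 10 genes on the genome were read as well. Of the nearest protein-coding genes on each side, 20 in all, 17 passed a mean of 1 CPM and 0 of these were at least 2-fold higher or lower. Their log2 ratios ran from −0.65 (CTIF, beside SMAD7) to 0.65 (MBOAT1, beside ID4). The genes beside BMP4 were DDHD1, 796413 bases away, with 279 and 393 counts and a log2 ratio of 0.42 (0.20 to 0.65), and CDKN3, 438088 bases away, with 855 and 716 counts and a log2 ratio of −0.33 (−0.47 to −0.18). The difference at BMP4 was thus many times larger than at either gene beside it. SMAD3 is the nearest protein-coding gene after SMAD6, 280914 bases away.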

How the data were processed

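The 10 genes and the gene lists were chosen with earlier results of these data known. Per the methods, stranded mRNA libraries of H1944 cells were aligned to GRCh38 with Hisat2 2.0.4, and the deposited values are raw counts per gene, which the methods credit to StringTie 1.3.0 on uniquely mapped fragments. The submitters' processing notes name Trimmomatic, HISAT2 2.0.4 and HTSeq 0.6.0 instead. The annotation release is not given in the sources used here. Lines of annotation text without a count, 91 per library, were left out.

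Levels are CPM with edgeR 4.0.16 TMM factors (0.955 for shCON, 1.05 for shUSP12; R 4.3.3). Library totals and 95% counting intervals give the precision, and the floor was 3 counts, which is 0.172 CPM for shCON and 0.164 CPM for shUSP12. Rows whose mean reached 1 CPM (the rows tested) were set against a 2-fold threshold, with no p-value. The procedure was checked on simulated counts. These were drawn with counting error alone, as the intervals assume, so the check does not cover spread between replicates. Coordinates, exon lengths and neighbours came from GENCODE release 44 on GRCh38, which held 99.1% of the Ensembl rows. Named genes were USP12, the 10 genes, and in each list those beyond 2-fold (up to 5) and the gene with the highest mean CPM. Others, among them markers, neighbours, overlapping genes, TCF3, TCF4, TCF12 and CCN2, were named after their values were seen. Computations used Python 3.11.15, NumPy 2.4.6, pandas 2.3.3, SciPy 1.17.1 and Matplotlib 3.10.9. Alternatives were other pseudocounts, scalings (DESeq2 1.42.0 size factors among them), filters, thresholds and gene lengths.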

Additional observations from a re-analysis of the deposited data

How the results depend on the processing

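No paired analysis was possible because shCON and shUSP12 are single libraries, so leaving one out was not possible either. Under 7 alternatives for each gene, 65 of 70 log2 ratios stayed inside their counting intervals and 0 changed sign. The 5 others were BMP4 at 3.94 with a pseudocount of 1 CPM and, with total counts alone, ID1 at 0.47, ID3 at 0.54, SMAD7 at −0.23 and TGFB1 at −0.06. With total counts alone the median over the tested rows moved from −0.01 to 0.12, and 79.6% of the rows beyond 2-fold were higher, against 68.3% with TMM factors (1137 rows higher and 291 lower). With that scaling, and with a 1.5-fold threshold, 2 of the 10 genes were called higher (BMP4 and ID2) instead of 1. The pathway genes called higher were 10, but 16 without a filter and 4 with a 4-fold threshold. Those called lower were 6, but 3 with a filter at 5 CPM, 13 with a 1.5-fold and 2 with a 4-fold threshold, which follows from fewer or more genes meeting the rule. Over all rows, 3993 were higher and 2447 lower without a filter, 361 and 168 with a filter at 5 CPM, 1744 and 1331 at 1.5-fold, 416 and 38 at 4-fold, and 214 lower with a pseudocount of 1 CPM, against 947 and 440. Depth limits ENG, CDKN2B, INHBB and ACVR1C most among the named pathway genes, with at most 11 counts in shCON.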
